A study of Rattus norvegicus with 14 samples.

Results

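Blood T cells were followed through 9 genes that mark them, namely the T cell receptor chains Cd3e and Cd3g, the coreceptors Cd4, Cd8a and Cd8b, the surface receptors Cd2 and Cd5, and Lef1 and Ccr7, which are characteristic of naive T cells. Every probe set annotated with one of these symbols and no other was taken, whatever its values, which gave 12 probe sets of 8 genes of 14217 genes with such a probe set and 31042 probe sets on the array. Ccr7 had no such probe set and carries no value. RNA came from peripheral blood mononuclear cells (PBMC, lymphocytes and monocytes isolated on Ficoll) of female Wistar rats, and 14 arrays in 5 groups were deposited. NOCIA_B (3 arrays) were healthy rats and CIA_B (2 arrays) were rats with collagen induced arthritis, both sampled before any therapy. Arthritis was induced by immunisation with bovine type II collagen in complete Freund's adjuvant, boosted with the same collagen in incomplete adjuvant. The other groups had 3 arrays each, sampled at day 34: healthy rats under needle stimulation (NOCIAMS_A), arthritic rats under needle stimulation (MS_A), and arthritic rats given methotrexate, an antifolate drug, together with stimulation (MTXMS_A). The labels use shorter codes (NORA, RA, HAP, AP and MTXAP), and matching them to the names used here is a reading of the labels. No unstimulated rats were sampled at day 34 among these arrays, so that time and stimulation cannot be told apart in any comparison with a group sampled before therapy.

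T cells recognise antigen through a receptor whose signal is carried into the cell by the Cd3 chains. Coreceptors bind the presenting molecule and bring the kinase Lck to the receptor, Cd4 for class II and Cd8 for class I molecules of the major histocompatibility complex. In the rat Cd4 is also carried by monocytes and the Cd8a chain by natural killer (NK) cells, while the Cd8b chain is largely restricted to T cells. Naive T cells, which have not met their antigen, keep Lef1, a transcription factor that works with beta-catenin, and lose it as they differentiate into effector cells. In bulk PBMC, fewer T cells and less RNA of a gene per T cell cannot be told apart.

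The promoters of Cd2, Cd8a, Cd3e and Lef1 are shown, since these genes carry the differences described further on. They are RefSeq windows on build GRCr8, running from 250 bases before to 50 bases after the start of the gene. RefSeq windows were at hand for 6 of the 9 genes, those of Cd5 and Cd3g being the others. Letters recognised by factors of T cells were searched on both strands: TGTGGT (Runx), CTTTGA and CTTTGT (Tcf and Lef), CAGGTG (E proteins) and AGGAAG (Ets). Capitals mark the matches, none of which overlapped another, and a match describes letters, not a bound site.
Cd2, chr2:191412610-191412909, minus strand: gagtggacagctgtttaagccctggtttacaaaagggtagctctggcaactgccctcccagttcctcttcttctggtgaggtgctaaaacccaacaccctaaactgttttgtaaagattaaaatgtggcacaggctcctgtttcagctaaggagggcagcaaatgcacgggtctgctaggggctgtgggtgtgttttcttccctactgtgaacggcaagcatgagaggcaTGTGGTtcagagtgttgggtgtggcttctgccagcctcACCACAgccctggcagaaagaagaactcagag
Cd8a, chr4:104923866-104924165, plus strand: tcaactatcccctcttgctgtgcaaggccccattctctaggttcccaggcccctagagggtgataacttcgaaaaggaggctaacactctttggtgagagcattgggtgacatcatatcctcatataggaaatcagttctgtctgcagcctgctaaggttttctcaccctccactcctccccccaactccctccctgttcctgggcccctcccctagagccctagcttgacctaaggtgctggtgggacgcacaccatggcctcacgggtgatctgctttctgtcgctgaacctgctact
Cd3e, chr8:54211721-54212020, minus strand: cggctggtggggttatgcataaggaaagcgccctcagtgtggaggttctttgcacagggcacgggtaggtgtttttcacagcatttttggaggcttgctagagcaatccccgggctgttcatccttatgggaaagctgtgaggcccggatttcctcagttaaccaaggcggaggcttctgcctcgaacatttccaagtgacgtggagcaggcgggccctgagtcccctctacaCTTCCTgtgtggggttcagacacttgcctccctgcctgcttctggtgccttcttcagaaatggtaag
Lef1, chr2:222340463-222340762, plus strand: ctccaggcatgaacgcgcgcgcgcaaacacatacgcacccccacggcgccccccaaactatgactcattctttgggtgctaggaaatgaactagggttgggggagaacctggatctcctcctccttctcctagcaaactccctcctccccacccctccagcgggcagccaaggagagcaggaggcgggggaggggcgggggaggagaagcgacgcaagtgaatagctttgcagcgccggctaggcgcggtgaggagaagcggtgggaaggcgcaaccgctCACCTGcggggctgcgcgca

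The Cd2 window held the Runx letters 2 times, at position -20 and, on the other strand, at position 18 from the start of the gene. Of all 27457 promoters of this length, 16.9% held these letters. The Cd3e window held the Ets letters on the other strand at position -17, as 34.3% of promoters did on either strand, and the Lef1 window held the E protein letters on the other strand at position 30, against 18.7% of promoters. Cd8a had 0 matches, Cd5 had 4 (E protein and Ets) and Cd3g had 2 (1 of each). No window of the 6 held the Tcf and Lef letters, which were present in 15.9% (CTTTGA) and 18.3% (CTTTGT) of promoters. Cd3e and Cd3g lie near each other on chromosome 8 with the start of Cd3d between them, and Cd8a and Cd8b are neighbours on chromosome 4 with 1 pseudogene, Tuba1b-ps8, between them.

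The deposited signals, scaled so that the trimmed mean of each array is 500, had array medians of up to 148.6. Two-sided limma tests on log2 signal used all 14 arrays and 18515 probe sets, those above the array median on at least 2 arrays, and all 12 probe sets of the T cell genes were among them. By limma 0 of the 18515 probe sets passed a Benjamini-Hochberg adjusted p of 0.05 in each of the 7 comparisons (smallest adjusted p per comparison, 0.0604 to 0.901) and in the F test across the 5 groups (smallest adjusted p 0.327), while 999 to 2746 were at an unadjusted p under 0.05, depending on the comparison. Differences are therefore given as log2 values with their standard error (SE) or 95% interval, and no gene is said to have changed. NOCIA_B replicate 3 and MTXMS_A replicate 3 were the arrays least correlated with the rest (mean r 0.856 and 0.882, highest array 0.934), and their erythroid marker scores (mean log2 deviation of 13 markers) were the extremes of the series, at 2.41 and -5.05. On all 14 arrays 11 of the 12 probe sets were above the array median, a count that was not made over all probe sets. The exception was Cd4, which was above it on 7 arrays.

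**Figure D1:**
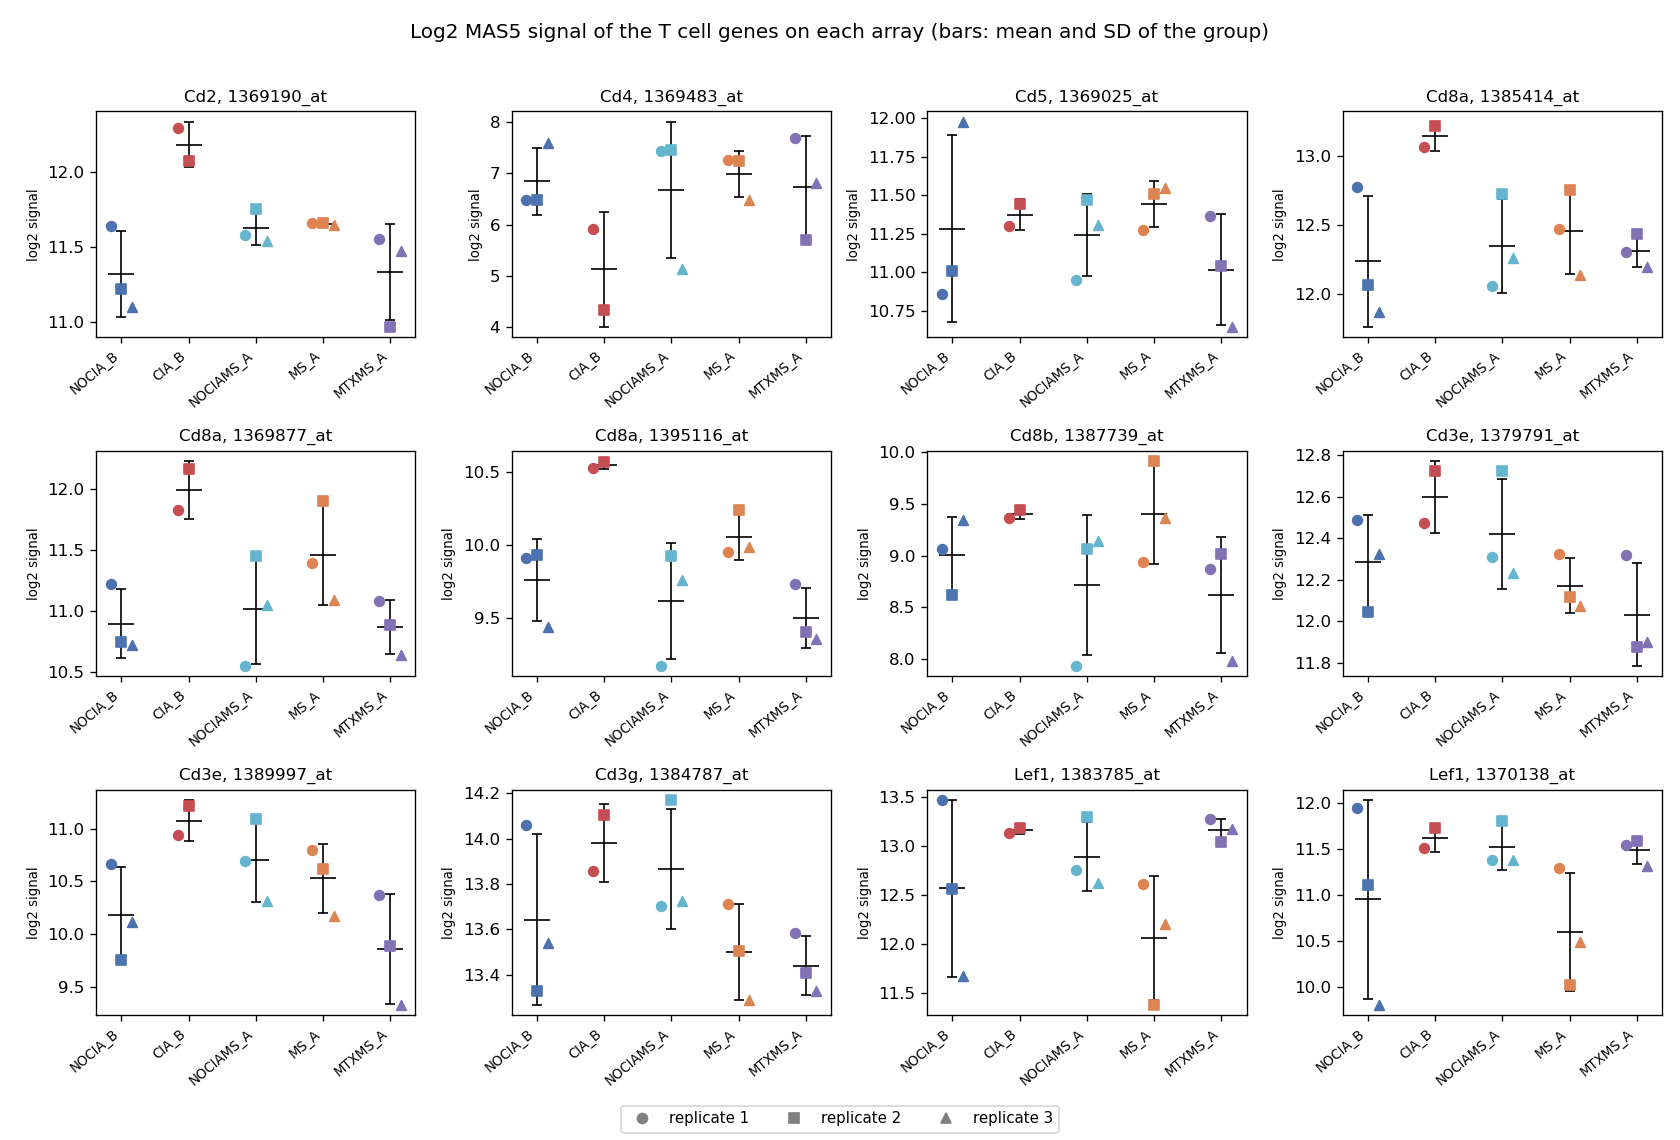
Log2 signal (vertical axis) of the 12 probe sets on each of the 14 arrays by group, with bars for the group mean and SD. Both CIA_B arrays lie above all 12 others for Cd2 and for Cd8a probe sets 1385414_at and 1395116_at, while Cd4 is lowest on 1 of them.

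The Cd3 chains are carried by every T cell. Cd3g (1384787_at) gave log2 signals of 14.06, 13.33 and 13.54 in NOCIA_B, 13.86 and 14.10 in CIA_B, 13.70, 14.17 and 13.73 in NOCIAMS_A, 13.71, 13.50 and 13.29 in MS_A, and 13.58, 13.41 and 13.33 in MTXMS_A. The CIA_B arrays overlapped with both healthy groups and lay above all arrays of MS_A and MTXMS_A. The differences from CIA_B were -0.48 (SE 0.25) in MS_A and -0.54 (SE 0.25) in MTXMS_A, and CIA_B stood 0.34 above NOCIA_B (SE 0.25). The brighter Cd3e probe set (1379791_at) gave 12.49, 12.05 and 12.32 in NOCIA_B, 12.47 and 12.72 in CIA_B, 12.31, 12.72 and 12.23 in NOCIAMS_A, 12.32, 12.12 and 12.07 in MS_A, and 12.32, 11.88 and 11.90 in MTXMS_A. Again both treated arthritic groups lay below both CIA_B arrays, by 0.43 (SE 0.23) in MS_A and 0.57 (SE 0.23) in MTXMS_A when means were compared.

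The second Cd3e probe set (1389997_at) spread further. It gave 10.67, 9.76 and 10.12 in NOCIA_B, 10.94 and 11.21 in CIA_B, 10.70, 11.09 and 10.31 in NOCIAMS_A, 10.80, 10.62 and 10.17 in MS_A, and 10.37, 9.89 and 9.33 in MTXMS_A. Both CIA_B arrays were above every NOCIA_B, MS_A and MTXMS_A array and overlapped with NOCIAMS_A. The mean of CIA_B was 0.90 above NOCIA_B (SE 0.36), whereas the brighter probe set gave 0.31 (SE 0.23), so the size of the Cd3e difference depends on the probe set. MTXMS_A was 1.21 below CIA_B at this probe set (SE 0.36). The later-minus-earlier difference was -0.55 in arthritic rats (MS_A against CIA_B) and 0.52 in healthy rats (NOCIAMS_A against NOCIA_B), and these differed by -1.07 (SE 0.49).

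Cd8a, the chain shared by cytotoxic T cells and rat NK cells, was highest in CIA_B at 3 of 3 probe sets. The brightest (1385414_at) gave 12.77, 12.07 and 11.87 in NOCIA_B, 13.06 and 13.21 in CIA_B, 12.06, 12.72 and 12.26 in NOCIAMS_A, 12.47, 12.75 and 12.14 in MS_A, and 12.31, 12.44 and 12.20 in MTXMS_A. Both CIA_B arrays exceeded the 12 others, and the other groups overlapped with one another. The mean of CIA_B was 0.90 above NOCIA_B (95% interval 0.25 to 1.55), MS_A was 0.68 below CIA_B (SE 0.30) and MTXMS_A 0.82 below it (SE 0.30). At 1369877_at the arrays gave 11.22, 10.75 and 10.72 in NOCIA_B, 11.82 and 12.16 in CIA_B, 10.55, 11.45 and 11.05 in NOCIAMS_A, 11.39, 11.90 and 11.08 in MS_A, and 11.08, 10.88 and 10.64 in MTXMS_A. CIA_B was again above all arrays of both healthy groups and of MTXMS_A, but MS_A replicate 2 lay between its 2 arrays. The third probe set (1395116_at) gave 9.91, 9.93 and 9.44 in NOCIA_B, 10.53 and 10.57 in CIA_B, 9.17, 9.93 and 9.76 in NOCIAMS_A, 9.95, 10.24 and 9.98 in MS_A, and 9.73, 9.41 and 9.36 in MTXMS_A. Here MS_A took an intermediate place, below CIA_B and above every array of the other 3 groups.

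For the dimmer Cd8a probe sets the difference of CIA_B from NOCIA_B was 1.10 (SE 0.32) at 1369877_at and 0.78 (SE 0.26) at 1395116_at, close to that of the brightest. They set MTXMS_A further below CIA_B, by 1.13 (SE 0.32) and 1.05 (SE 0.26). MTXMS_A was also below MS_A at these probe sets, by 0.59 (SE 0.28) and 0.56 (SE 0.23), and this was not seen at 1385414_at, where the difference was -0.14 with a 95% interval of -0.72 to 0.44. In healthy rats the later arrays differed from the earlier ones by 0.11, 0.12 and -0.14 at the 3 probe sets, each within its interval around 0.

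Cd8b, the chain that marks the T cell share of Cd8 expression, differed less clearly. Probe set 1387739_at gave 9.07, 8.62 and 9.34 in NOCIA_B, 9.37 and 9.44 in CIA_B, 7.94, 9.07 and 9.14 in NOCIAMS_A, 8.94, 9.91 and 9.36 in MS_A, and 8.87, 9.02 and 7.98 in MTXMS_A. The CIA_B arrays were just above those of NOCIA_B and inside the range of MS_A. The difference of CIA_B from NOCIA_B was 0.39 with a 95% interval of -0.55 to 1.34 (SE 0.43), that of MS_A from CIA_B was 0.00 with an interval of -0.94 to 0.94, and MTXMS_A was 0.78 below both (SE 0.43 against CIA_B and 0.39 against MS_A). These intervals include the size of the Cd8a differences, so a difference between the 2 chains cannot be read from them.

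Cd4, the coreceptor of helper T cells and also a monocyte receptor in the rat, was the dimmest of the genes, with signals of 20.1 to 207.7 on the linear scale. Its log2 signals were 6.47, 6.47 and 7.60 in NOCIA_B, 5.92 and 4.33 in CIA_B, 7.44, 7.45 and 5.13 in NOCIAMS_A, 7.26, 7.25 and 6.47 in MS_A, and 7.70, 5.69 and 6.80 in MTXMS_A. Both CIA_B arrays were below all NOCIA_B and MS_A arrays, but NOCIAMS_A replicate 3 and MTXMS_A replicate 2 were below the higher of them. Neither CIA_B array was above its array median for Cd4 (linear signals of 60.6 and 20.1), nor were NOCIA_B replicates 1 and 2 (88.8 and 88.7), and detection calls were not used. CIA_B was 1.72 below NOCIA_B (SE 0.78) and MS_A 1.87 above CIA_B (SE 0.78). A single array set the size of both: without CIA_B replicate 2 the values were -0.93 (SE 0.95) and 1.07 (SE 0.95), and without CIA_B replicate 1 they were -2.52 and 2.67. The 16 monocyte markers tested had a median difference of 0.21 for CIA_B against NOCIA_B, 12 of them above 0, and with their score as a covariate the Cd4 difference was -1.43 (SE 0.70).

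Cd2, an adhesion receptor of T and NK cells that binds Cd48 in rodents, separated CIA_B from the other groups. Probe set 1369190_at gave 11.64, 11.22 and 11.10 in NOCIA_B, 12.29 and 12.07 in CIA_B, 11.58, 11.75 and 11.54 in NOCIAMS_A, 11.66, 11.66 and 11.65 in MS_A, and 11.55, 10.97 and 11.48 in MTXMS_A. Both CIA_B arrays were above the 12 others. CIA_B was 0.86 above NOCIA_B (95% interval 0.36 to 1.36), a 1.82-fold difference, and MS_A and MTXMS_A were 0.53 (SE 0.23) and 0.85 (SE 0.23) below CIA_B. In healthy rats the later arrays were 0.30 above the earlier ones (SE 0.21), and the later-minus-earlier difference of arthritic rats was lower than that of healthy rats by 0.83 (SE 0.31). Cd5, which dampens receptor signalling and is also carried by some B cells, overlapped in each of the 6 pairs of groups compared. Probe set 1369025_at gave 10.86, 11.01 and 11.98 in NOCIA_B, 11.30 and 11.44 in CIA_B, 10.95, 11.47 and 11.31 in NOCIAMS_A, 11.27, 11.51 and 11.54 in MS_A, and 11.37, 11.04 and 10.65 in MTXMS_A. Its largest difference was -0.42 for MTXMS_A against MS_A (95% interval -1.07 to 0.22).

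Lef1 followed another order of groups, with MS_A lowest. Probe set 1383785_at gave 13.47, 12.56 and 11.67 in NOCIA_B, 13.14 and 13.19 in CIA_B, 12.76, 13.29 and 12.63 in NOCIAMS_A, 12.61, 11.38 and 12.20 in MS_A, and 13.27, 13.04 and 13.17 in MTXMS_A. All MS_A arrays were below all arrays of CIA_B, NOCIAMS_A and MTXMS_A, while NOCIA_B spanned nearly the whole range from its replicate 3 to its replicate 1. The mean of MTXMS_A was 1.10 above MS_A (SE 0.42), a 2.14-fold difference, that of MS_A was 1.10 below CIA_B (SE 0.46), and MTXMS_A and CIA_B had nearly the same mean, with an interval of -1.01 to 1.01 for their difference. At 1370138_at the arrays gave 11.94, 11.11 and 9.80 in NOCIA_B, 11.51 and 11.72 in CIA_B, 11.38, 11.80 and 11.38 in NOCIAMS_A, 11.29, 10.03 and 10.49 in MS_A, and 11.54, 11.58 and 11.32 in MTXMS_A. MS_A was again below the same 3 groups on each array, with differences of -1.01 from CIA_B (SE 0.51), -0.92 from NOCIAMS_A (SE 0.46) and, for MTXMS_A against MS_A, 0.88 (SE 0.46). MS_A replicate 2 weighed on these values: without it the difference of MTXMS_A from MS_A at 1383785_at was 0.75 (SE 0.43).

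By group mean, CIA_B was the highest of the 5 groups for Cd2, the Cd3 chains, Cd8a and Lef1 (9 probe sets), and the lowest for Cd4. MTXMS_A was the lowest for Cd5, Cd8b, Cd3e, Cd3g and the dimmer Cd8a probe sets, and NOCIA_B for Cd2 and the brightest Cd8a probe set. Below CIA_B, neighbours in this order had overlapping arrays for Cd2 and for the brightest Cd8a probe set. Of the 6 pairs of groups compared, 5 were free of overlap for Cd8a 1395116_at, the most of the 12 probe sets, and 0 for Cd5. For 1395116_at MS_A exceeded NOCIAMS_A only narrowly (lowest 9.95 against highest 9.93). At the brightest Cd8a probe set only the pairs with CIA_B were free of overlap. The share over all probe sets is given with each comparison below. The F test across the 5 groups gave unadjusted p under 0.05 for 4 of the 12 probe sets (Cd8a 1395116_at and 1369877_at, Cd2, and Cd3e 1389997_at), against 7.42% of all probe sets tested. None of these passed adjustment over all probe sets (adjusted p = 0.64 for Cd2). The study used unadjusted p under 0.05 with a fold of at least 2, together with filters on detection calls that were not applied here. At these p and fold thresholds the counts of the 12 probe sets were 2 for CIA_B against NOCIA_B (4.68% of all), 2 for MS_A against CIA_B (3.62%), 3 for MTXMS_A against CIA_B (2.28%), 0 in healthy rats (2.3%), 1 for MTXMS_A against MS_A (4.5%), 0 for MS_A against NOCIAMS_A (1.87%) and 3 for the difference between arthritic and healthy later-minus-earlier values (10.2%). Cd4, below the array median on both CIA_B arrays, was among those counted for CIA_B against NOCIA_B and for MS_A against CIA_B.

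Arthritis before therapy was the question of CIA_B against NOCIA_B. At unadjusted p under 0.05, 6 of the 12 probe sets differed, against 8.47% of all probe sets tested. Cd2, Cd3e (1389997_at) and the 3 Cd8a probe sets were higher in CIA_B, where 3.12% of all were, and Cd4 was lower, where 5.36% were. For 7 of the 12 the arrays of both groups were fully separated, against 21% of all. The median over the 8 genes, each by its brightest probe set, was 0.37 with 7 of 8 above 0, beside a median of 0.07 and 55.5% above 0 over all probe sets. The adjusted p of these 6 probe sets was 0.583 in limma. Array weights, estimated from the scatter of these same arrays, took 4 of them past 0.05 (Cd2 0.0311, Cd8a 1385414_at 0.037 and 1369877_at 0.038, Cd3e 1389997_at 0.0446). With these weights 765 of all probe sets passed. The weights of NOCIA_B replicates 1, 2 and 3 were 0.32, 2.82 and 0.29, so that the healthy group rested mainly on replicate 2. The other alternatives gave adjusted p of 0.0573 to 1 for these 4. Platelet markers moved along with this comparison: 12 of 13 were lower in CIA_B, 8 at unadjusted p under 0.05, with a median of -1.45, and their summed signal was 110657 to 153860 in CIA_B and 156575 to 476831 in NOCIA_B, with 0 markers below the array median throughout a group. With the platelet score as a covariate 0 of the 12 probe sets were at unadjusted p under 0.05, Cd2 at 0.50 (SE 0.23) and Cd8a 1385414_at at 0.44 (SE 0.32). Cd8a stood at 0.88 (SE 0.40) at 1369877_at and 0.66 (SE 0.33) at 1395116_at. Cd3e 1389997_at stood at 0.63 (SE 0.47) and Cd4 at -1.91 (SE 1.06). All 6 probe sets kept their direction, and each SE was larger than without the covariate. Without CIA_B replicate 2 the count was 3 and without NOCIA_B replicate 1 it was 8.

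MS_A against CIA_B, stimulated arthritic rats at day 34 against arthritic rats before therapy, had 4 of the 12 probe sets at unadjusted p under 0.05, against 7.83% of all. Cd4 was higher (3.9% of all were), and Cd2, Cd8a (1385414_at) and Lef1 (1383785_at) were lower (3.93% of all were). Arrays did not overlap for 9 of the 12, where 35.9% of all did not. The median of the 8 genes was -0.45, beside -0.01 over all probe sets. Since this comparison shares the 2 CIA_B arrays with the former and with MTXMS_A against CIA_B, opposite signs between them are no independent result. Platelet markers were higher in MS_A for 12 of 13 (median 1.26, 5 at unadjusted p under 0.05), monocyte markers for 14 of 16 (median 0.53). With the platelet score as a covariate the count was 0 and Lef1 stood at -0.39 (SE 0.42). Cd2 then stood at -0.24 (SE 0.22), Cd8a 1385414_at at -0.32 (SE 0.29) and Cd4 at 2.02 (SE 0.98). With the monocyte score the count was 1 (Cd4). Without CIA_B replicate 2 the count was 0.

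MTXMS_A against CIA_B had 6 of the 12 probe sets lower at unadjusted p under 0.05, namely Cd2, both of Cd3e and the 3 of Cd8a, and 0 higher, against 5.4% of all in either direction and 2.85% lower. Arrays did not overlap for 8 of the 12, against 21.8% of all. The median of the 8 genes was -0.55 with 7 of 8 below 0, beside -0.02 over all probe sets. The smallest adjusted p of all probe sets was 0.901. Of the cell markers, 11 of 13 NK genes were lower (median -0.64) and 13 of 13 platelet genes higher (median 0.80). No NK score was fitted as a covariate, and the part of NK cells in the result was not tested. With the platelet score as a covariate the count was 5, and without CIA_B replicate 2 it was 4.

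In healthy rats, NOCIAMS_A against NOCIA_B, 0 of the 12 probe sets were at unadjusted p under 0.05, against 6.18% of all, and arrays overlapped for all 12, where 9.61% of all did not overlap. The largest difference of a brightest probe set was 0.32 for Lef1 (95% interval -0.58 to 1.23). The later-minus-earlier difference of arthritic rats, compared with that of healthy rats, was lower at unadjusted p under 0.05 for 4 of the 12 (Cd2, Cd3e 1389997_at and both Lef1 probe sets), against 13.1% of all and 6.99% lower. For Lef1 it was -1.42 (SE 0.62) at 1383785_at and -1.58 (SE 0.69) at 1370138_at. Array weights, in which NOCIA_B rested mainly on replicate 2, took Cd2 to -0.91 with an adjusted p of 0.0416 in limma. Under the other alternatives this adjusted p was 0.0679 to 1. Without NOCIA_B replicate 3 the Lef1 value at 1383785_at was -0.98 and without NOCIA_B replicate 1 it was -1.87. Platelet markers were higher for 12 of 13 in the same contrast (median 2.37, 9 at unadjusted p under 0.05), and with their score as a covariate the count was 0.

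Methotrexate treatment set MTXMS_A apart from MS_A, both sampled at day 34 under stimulation. The study gave the drug as a weekly peritoneal injection and describes no saline injection for MS_A, so drug and injection cannot be told apart. The 2 probe sets at unadjusted p under 0.05 were Lef1 1383785_at, higher with methotrexate, and Cd8a 1395116_at, lower, against 14.8% of all probe sets, so that the count lay near the background. Their adjusted p was 0.271 and 0.303. Of all probe sets 7.07% were higher and 7.76% lower. Arrays were separated for 5 of the 12, against 22.8% of all. NK markers were lower with methotrexate for 13 of 13 (median -0.996, 8 at unadjusted p under 0.05) with summed signals of 22595 to 30668 against 27730 to 59291 in MS_A, and monocyte markers for 14 of 16 (median -0.65, 5 at unadjusted p under 0.05) with 54872 to 97565 against 87240 to 109662. B cell markers were lower for 10 of 13 (median -0.24, 4 at unadjusted p under 0.05) with summed signals of 11786 to 26153 against 12585 to 23736. Of all probe sets 49.4% were above 0. For Lef1 the difference was 0.66 (SE 0.45) with the monocyte score as a covariate and 1.03 (SE 0.32) with the platelet score. MS_A against NOCIAMS_A, arthritic against healthy rats under stimulation, had 0 of the 12 at unadjusted p under 0.05, against 5.68% of all. Arrays did not overlap for 3 of the 12, both Lef1 probe sets (lower in MS_A) and Cd8a 1395116_at (higher), where 17.9% of all did not. NK markers were higher in MS_A for 12 of 13 in the same comparison (median 0.74, 4 at unadjusted p under 0.05), with summed signals of 27730 to 59291 against 22582 to 32404 in NOCIAMS_A, and their part in the Cd8a difference was not tested.

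**Figure D2:**
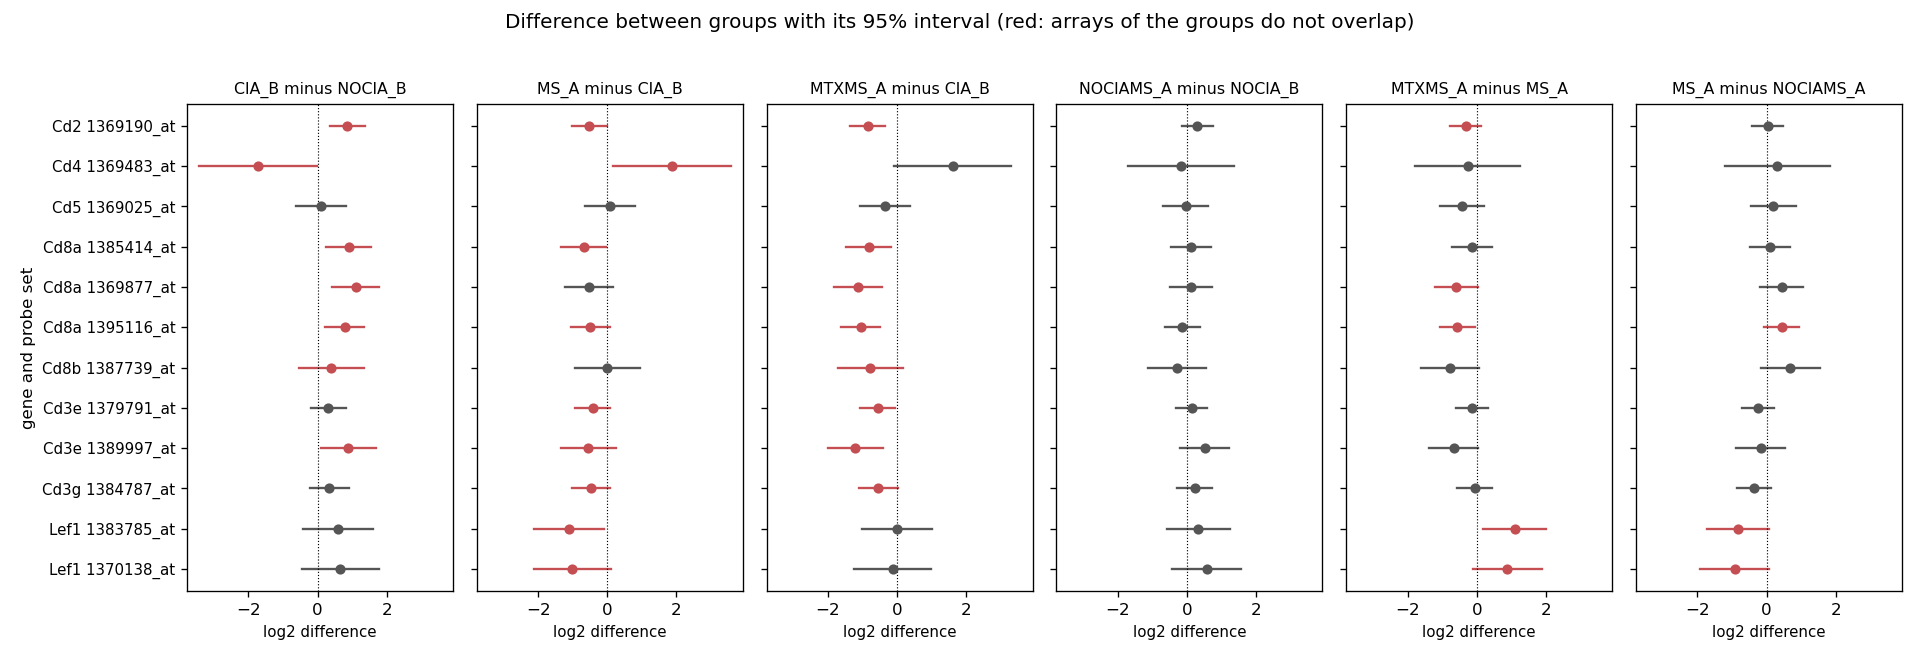
Log2 difference between groups (horizontal axis) with its 95% interval for each of the 12 probe sets (vertical axis), in the comparisons named above the panels. Red marks pairs of groups whose arrays do not overlap, 7 of 12 for CIA_B against NOCIA_B and 0 of 12 for NOCIAMS_A against NOCIA_B.

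To set the genes against one another within the same array, each log2 signal was centred on its mean over the 14 arrays and differences were taken between centred values. Cd4 minus Cd8a was -0.42, 0.29 and 1.61 in NOCIA_B, -1.26 and -3.00 in CIA_B, 1.26, 0.61 and -1.25 in NOCIAMS_A, 0.67, 0.38 and 0.21 in MS_A, and 1.27, -0.86 and 0.49 in MTXMS_A. Both CIA_B arrays were below all arrays of the other groups, narrowly so for NOCIAMS_A replicate 3. The shift of CIA_B from NOCIA_B was -2.62, a description only, since the Cd4 signals of CIA_B lay below the array median. Without CIA_B replicate 2 it was -1.75. Lef1 was also set against the mean of 19 other genes of the T cell receptor complex and its signalling, and gave 0.60, -0.15 and -1.04 in NOCIA_B, 0.37 and 0.14 in CIA_B, 0.13, 0.42 and -0.09 in NOCIAMS_A, -0.17, -1.33 and -0.46 in MS_A, and 0.46, 0.36 and 0.75 in MTXMS_A. All MS_A arrays lay below those of CIA_B, NOCIAMS_A and MTXMS_A on this relative scale too. MTXMS_A exceeded MS_A by 1.18, with an exact permutation p of 0.1, the smallest for 3 against 3 arrays, and without MS_A replicate 2 by 0.84.

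Relative to the same 19 genes, Cd2 was 0.72 and Cd8a 0.76 higher in CIA_B than in NOCIA_B without overlap (two-sided exact permutation p 0.2 each, the smallest that 3 against 2 arrays can give), while Cd8b was 0.25 higher with overlap. In all, 60 such differences were compared, and the lowest Benjamini-Hochberg adjusted exact p was 0.462, a design in which no value can pass 0.05.

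**Figure D3:**
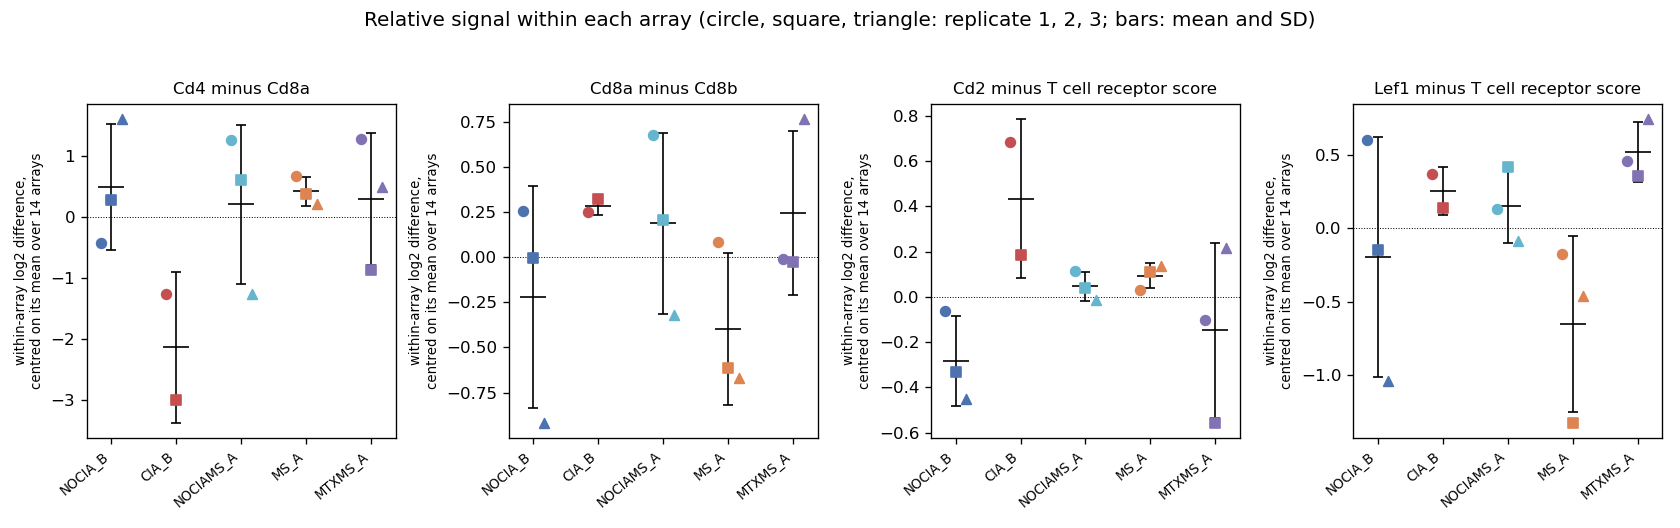
Within-array log2 differences (vertical axis, each centred on its mean over the 14 arrays) by group, a point per array with the mean and SD of the group. Cd4 minus Cd8a has a mean of -2.13 in CIA_B and 0.49 in NOCIA_B, and Lef1 minus the T cell receptor score a mean of -0.65 in MS_A and 0.52 in MTXMS_A.

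Across the 14 arrays the probe sets of one gene moved together, with Pearson r of 0.95 for the Lef1 pair, 0.88 for the Cd3e pair and 0.79 to 0.91 for the Cd8a probe sets. These and the following r are descriptions, since all genes share the same arrays, the same scaling and the same cell mixture. Cd3e and Cd3g had r 0.93 (0.88 after removing group means). Cd2 went with Cd8a (r 0.75 at 3 of 3 probe sets), mainly between groups, as within groups r was 0.32 to 0.43. Cd5 went with Cd8b (0.71) and against Lef1 (-0.57 and -0.59). Cd4 and Cd8a had r of -0.38 to -0.48, and -0.02 to -0.16 within groups.

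**Figure D4:**
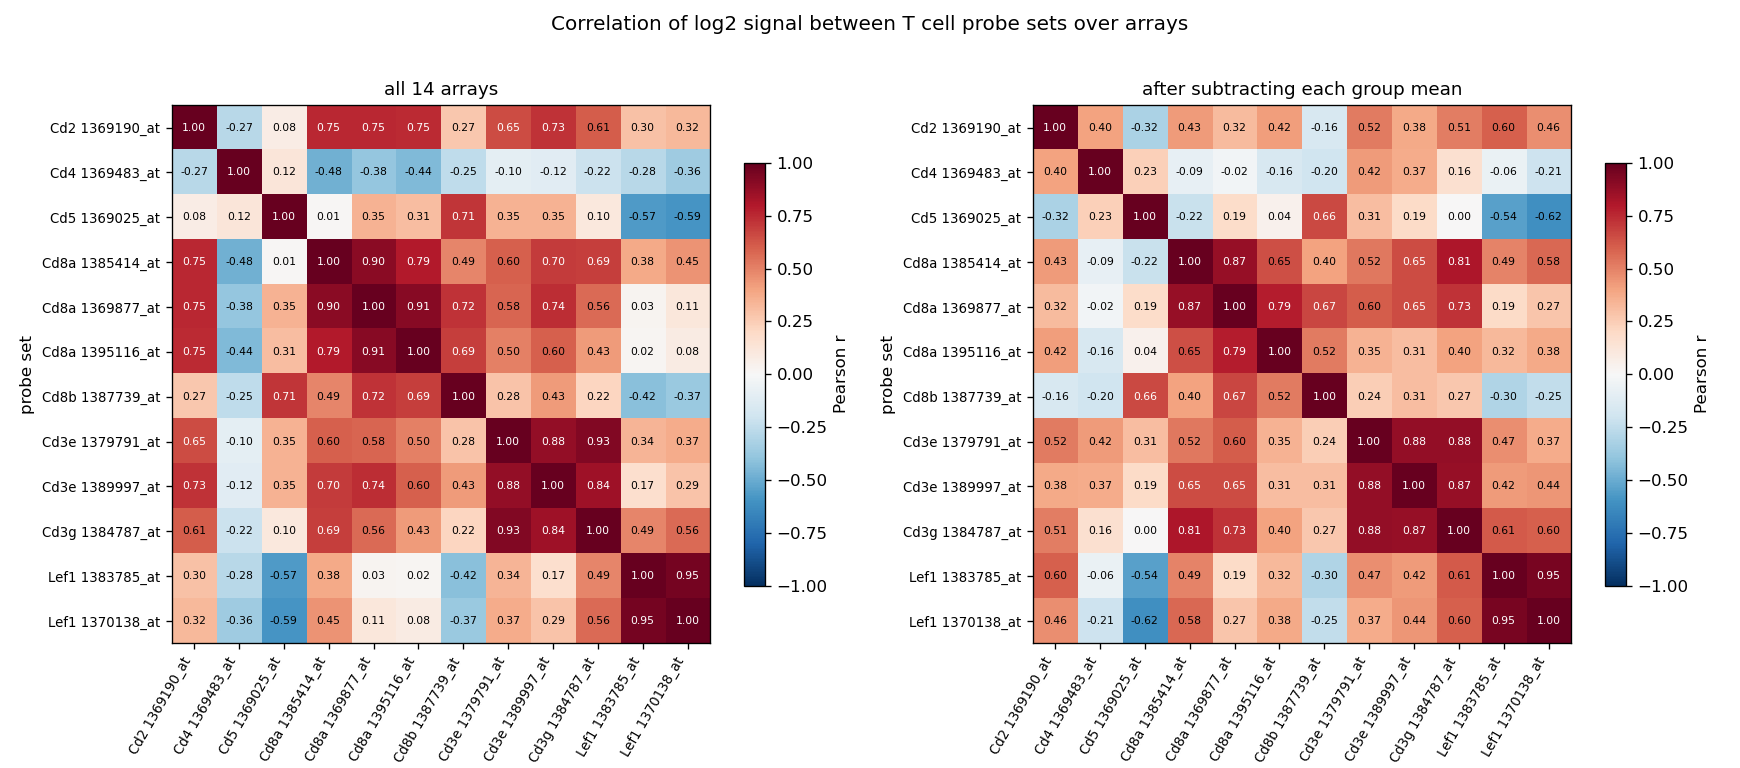
Pearson r of log2 signal between each pair of the 12 probe sets (both axes), over the 14 arrays and after removal of the group means, from -1 in blue to 1 in red. Cd3e and Cd3g reach 0.93, and Cd5 with Lef1 lies at -0.57 and -0.59.

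Among 10106 other genes, those closest in pattern to each gene's brightest probe set were listed by Pearson r over the 14 arrays. Cd3e and Cd3g had each other, with Cd3d (0.90 with Cd3g), a further Cd3 chain, and Lat (0.88 with Cd3e), the adaptor that receptor signalling phosphorylates, as well as Acap1 (0.92 with Cd3e) and Kdm8 (0.90 with Cd3g). Cd8b had Lck (0.87), the kinase that coreceptors carry, then Cers5 (0.86) and Dctn6 (0.84). Cd5 had Orai1 (0.90), the pore of the calcium channel that opens after receptor engagement, then Smap1 and Cmc2 (0.88 each). Cd4 had Adora1 (0.88), an adenosine receptor, Csf2rb (0.85), the shared chain of myeloid cytokine receptors, and Apool (0.84). Cd2 had Sike1 (0.90), Hcst (0.85), an adaptor of activating NK and T cell receptors, and Mapre1 (0.85). Cd8a had Ccdc115 (0.89), Cct4 and Kdm8 (0.83 each), and Lef1 had Igf1r (0.96), the receptor of insulin-like growth factor, with Lrig1 and Elf2 (0.95 each).

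Of the wider T cell receptor list, 19 genes of the complex and its early signalling were tested, and none passed adjustment. In CIA_B against NOCIA_B 13 of 19 were above 0 (median 0.15), beside 55.5% of all probe sets. At unadjusted p under 0.05, 1 was higher (3.12% of all were) and 1 lower (5.36% of all were). These were Sit1, a transmembrane adaptor that holds back receptor signalling, 1.08 higher (SE 0.36), and Prkcq, the kinase that links the receptor to NF-kappaB, 0.79 lower (SE 0.25). In MTXMS_A against CIA_B 15 of 19 were below 0 (median -0.31), where 48.1% of all probe sets were above 0. At the same p 4 were lower and 1 higher, against 2.85% of all lower and 5.4% in either direction. The higher one was Prkcq at 0.63 (SE 0.25). In MTXMS_A against MS_A 12 of 19 were below 0, where 49.4% of all probe sets were above 0. Of the 19, 5 were lower at this p (7.76% of all were) and 1 higher (7.07% of all were). Prkcq was 0.78 higher (SE 0.23) and Csk, the kinase that silences Lck, 0.71 lower (SE 0.24). Prkcq was also 0.73 lower in NOCIAMS_A than in NOCIA_B (SE 0.23), and Sit1 was 1.07 lower in MS_A than in CIA_B (SE 0.36).

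Naive and lineage factors were represented by 14 tested genes. In MS_A against NOCIAMS_A 5 of 14 were above 0 and 9 below (median -0.26), beside 44.6% above 0 and a median of -0.05 over all probe sets. At unadjusted p under 0.05, 3 were lower, against 5.68% of all in either direction. Satb1, a chromatin organiser of T cells, was lower by 0.81 (SE 0.35). S1pr1, the receptor by which lymphocytes leave lymph nodes, was lower by 0.54 (SE 0.22). Runx1, a transcription factor of T cell development, was lower by 0.49 (SE 0.18). Runx1 was also 0.80 below CIA_B in MS_A (SE 0.20) and 0.71 below it in MTXMS_A (SE 0.20). Satb1 was 0.85 higher in MTXMS_A than in MS_A (SE 0.35), where 10 of 14 were above 0 (median 0.21), beside 49.4% of all probe sets. For the difference between arthritic and healthy later-minus-earlier values 11 of 14 were below 0 (median -0.35). Over all probe sets the median was -0.11 and 43.7% were above 0. Of the 14, 3 were lower and 1 higher at unadjusted p under 0.05, against 6.99% of all lower and 13.1% in either direction.

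Among 11 tested genes of activation and memory, 9 were above 0 in CIA_B against NOCIA_B (median 0.19), beside 55.5% and a median of 0.07 over all probe sets. At unadjusted p under 0.05, 1 was higher, where 3.12% of all were. Fas, a death receptor of activated cells, was 0.59 higher in MS_A than in NOCIAMS_A (SE 0.26). The list was split there, with 6 of 11 above 0 (median 0.09), beside 44.6% of all probe sets. Il2rb, an interleukin-2 receptor chain that NK cells also carry, was 0.92 lower in MTXMS_A than in MS_A (SE 0.39). There too the list was split, with 5 of 11 above 0 (median -0.10), beside 49.4% of all probe sets. Cd69, an early activation antigen, was 0.69 higher in MTXMS_A than in CIA_B (SE 0.37), against the direction of most of its list. There 8 of 11 were below 0 (median -0.20, 0 at unadjusted p under 0.05), where 48.1% of all probe sets were above 0. Of 16 tested ligands and partners of the T cell genes, 12 were above 0 in NOCIAMS_A against NOCIA_B (median 0.42). Over all probe sets the median was 0.09 and 59.6% were above 0. Of the 16, 3 were higher at unadjusted p under 0.05, against 6.18% of all in either direction. Among them were RT1-DMb, which loads peptides on class II molecules, 0.55 higher (SE 0.23), and Pstpip1, which binds the tail of Cd2, 0.45 higher (SE 0.18). Pstpip1 was 0.60 higher in CIA_B than in NOCIA_B (SE 0.20), where Cd2 itself was higher. Cd48, the ligand of Cd2, was 0.90 lower in MTXMS_A than in MS_A (SE 0.29) and 0.32 lower in CIA_B than in NOCIA_B (SE 0.32).

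Of the other cells that a PBMC preparation holds, B cell markers had a median of 0.14 in CIA_B against NOCIA_B (9 of 13 above 0, 0 at unadjusted p under 0.05). NK cell markers had 0.22 (9 of 13, 0) and neutrophil markers 0.80 (7 of 8, 0), while erythroid markers were at -1.36 (0 of 13 above 0, 1 lower). Over all probe sets the median was 0.07 and 55.5% were above 0. Pf4, a platelet chemokine, and Tubb1, platelet tubulin, were the brightest platelet genes and were 0.67 and 0.86 lower in CIA_B than in NOCIA_B (SE 0.34 and 0.39). Only the platelet and monocyte scores were fitted as covariates. The part of B, NK, neutrophil and erythroid cells in the T cell results was not tested.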

How the data were processed

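PBMC RNA was hybridised to Affymetrix rat expression arrays, 1 sample per array. The authors computed MAS5 signals (affy, version not stated in the sources used here), and the deposited values are linear intensities scaled to a trimmed mean of 500 (2% trimmed at each end). Detection calls were not used here. Symbols came from GEO's platform annotation: of 31042 probe sets without 57 controls, 20826 had 1 symbol, 436 several and 9780 none.

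Log2 signals, without a pseudocount, were fitted in R 4.3.3 with limma 3.58.1 (lmFit, eBayes), 1 mean per group over all 14 arrays (9 residual degrees of freedom), with Benjamini-Hochberg adjustment over 18515 probe sets above the array median on at least 2 arrays. Fits were tested on simulated data. The number of arrays limits the precision. The labels name replicates as separate samples and do not say whether those of a group are separate animals. In the study rats were killed once their blood had been drawn, so no rat was sampled both before and after therapy. The p-values measure the spread between these samples. A list score is the mean log2 deviation of its genes from their means over the arrays, and a gene with several probe sets is counted by its brightest. The rule named the 9 genes, the 3 genes most correlated with each, the 3 genes of lowest F p in each T cell list and at most 2 brightest genes of other lists. Cd3d, Lck and Lat were named by correlation. Members and lists were chosen with earlier results of these data known. Alternatives changed the pseudocount, normalization, filter, array weights, moderation, samples, thresholds, replicate block and covariates. Promoters were RefSeq sequences of build GRCr8.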

Additional observations from a re-analysis of the deposited data

How the results depend on the processing

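The CIA_B group of 2 arrays enters every comparison with arthritic rats before therapy, and Cd4 lies below the array median on 7 of 14 arrays, both of CIA_B among them, so both limit precision. No result reversed. Of their values under the alternatives, 305 kept direction and side of the adjusted threshold and 5 passed it, all with array weights, as given above. None had passed that threshold in the main fit, so keeping its side says little about stability. Within-array results were followed only for chosen differences and pairs of groups without overlap, a choice that favours keeping the direction. These 10 kept it under quantile normalization, and their exact p could not pass 0.05 in this design. Their size did move: for Cd2 minus the T cell receptor score, MS_A against CIA_B gave -0.34. Leaving out each array in turn gave -0.59 to -0.09.

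Comparisons are listed in the order CIA_B against NOCIA_B, MS_A against CIA_B, MTXMS_A against CIA_B, NOCIAMS_A against NOCIA_B, MTXMS_A against MS_A, MS_A against NOCIAMS_A, the difference of the later-minus-earlier differences, and the F test, where the T cell probe sets at unadjusted p under 0.05 numbered 6, 4, 6, 0, 2, 0, 4 and 4, and 0 of all probe sets passed adjustment. Leaving out each array in turn gave 3 to 8, 0 to 6, 4 to 7, 0 to 3, 0 to 4, 0 to 2, 1 to 6 and 0 to 7 T cell probe sets at unadjusted p under 0.05. Of all probe sets, 0 to 168 (168 without NOCIA_B replicate 1), 0 to 4, 0 to 13, 0 to 4, 0 to 1, 0 to 0, 0 to 980 (980 without NOCIA_B replicate 1) and 0 to 1 passed adjustment. The 2 kinds of count are at unlike thresholds. The share of all probe sets at unadjusted p alone was not computed under the alternatives. The T cell counts under them, here and in the results above, therefore have no background to be read against. Calling at an unadjusted p under 0.05 with a fold of at least 2 gave 866, 670, 423, 426, 833, 347 and 1886 of all probe sets, and 2, 2 and 3 T cell probe sets in the first 3 comparisons and 1 for methotrexate. Array weights, which set NOCIA_B replicates 1 and 3 at 0.32 and 0.29 and replicate 2 at 2.82, gave 765 of all probe sets for arthritis before therapy, 1 in healthy rats, 2 for methotrexate and 1651 for the difference of differences, and 7, 3, 4, 4, 7 and 8 T cell probe sets in the second and the last 5 comparisons.

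The platelet score as a covariate gave 0, 0, 0 and 1 T cell probe sets in the first, the second, the difference of differences and the F test, and 6 of all probe sets for methotrexate. The monocyte score gave 1, 2, 5, 1 and 7 T cell probe sets in the second and the fourth to seventh comparisons. For MS_A against CIA_B no filter gave 1 of all and 2 T cell probe sets, no moderation 2 T cell probe sets, and the groups compared alone 1 of all. For methotrexate no moderation gave 5 of all, and trend with robust moderation 1 of all and 4 T cell probe sets. For MS_A against NOCIAMS_A no moderation gave 1 of all, and centring on the median, the groups compared alone and leaving out the 2 least correlated arrays gave 1, 1 and 2 T cell probe sets. For the difference of differences no filter, no moderation, the groups compared alone and leaving out the 2 least correlated arrays gave 1, 2, 2 and 1. In the F test no moderation gave 3 of all, and leaving out those 2 arrays, an alternative chosen after seeing the data, gave 2 T cell probe sets. The causes were not tested.

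Replicate numbers mark no shared animal, and same-numbered arrays deviated together no more than others (mean r 0.028 over 26 pairs against -0.015 over 52, and 3 of 14 arrays correlated best with their own number). With the replicate block 1 T cell probe set was at unadjusted p under 0.05 for MS_A against CIA_B and 1 for the difference of differences.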
